A study of Mus musculus with 4 samples.

Results

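The smooth muscle and contractile genes described here are 10 genes of 40999 features counted in mouse embryonic gonads: Acta2, Myh11, Tagln, Cnn1, Des, Actg2, Myocd, Lmod1, Actc1 and Casq2. They were taken by gene symbol as contractile genes of smooth muscle and peritubular cells, together with Casq2, and they were chosen by their counts and TPM in these same 4 libraries. Their levels are therefore given as a description, with no test. Total RNA was sequenced from gonads of C57BL/6J wild-type embryos collected daily, the earliest at E11.5 and the last at E14.5. Each of the 4 libraries came from 1 RNA pool of at least 6 male and at least 6 female gonads from 2 litters, so that XX and XY gonads cannot be told apart. The E11.5 pool was the whole genital ridge with its mesonephros, and the later pools were gonads dissected free of it, so that at E12.5 versus E11.5 the change in age and the loss of the mesonephros cannot be told apart. With 1 library per time point there is no spread between samples and no p-value.

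Smooth muscle cells shorten when myosin, switched on by phosphorylation of its light chain, pulls on actin filaments. The genes of this apparatus carry CArG boxes, short A/T-rich elements bound by serum response factor, which works there with the coactivator myocardin. In the fetal testis, peritubular myoid cells wrap the cords and later become contractile, and smooth muscle also surrounds the vessels of the gonad in both sexes. Calsequestrin, the product of Casq2, is a different kind of member: it binds calcium inside the sarcoplasmic reticulum and is best known from heart muscle.

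Since this element is the known link between the smooth muscle genes, the CArG boxes near their start sites are shown first. Start-site sequence was given for 6 of the 10 genes (Acta2, Cnn1, Des, Lmod1, Actc1 and Casq2) in the RefSeq promoter table, build GRCm38.p6, and the 250 bases before each start site were searched. The box was searched by its name's consensus, exactly or with 1 base off. That consensus reads the same on both strands, so a match serves both, and matches were allowed to overlap each other. In the lines that follow, the matched box is in capitals, and each window is written 5′ to 3′ on the strand of its gene. Actc1 is shown for its exact box and for the box it shares with Acta2, and Lmod1 and Casq2 are shown for the match nearest to the start site.
Acta2, chr19:34255438-34255467, minus strand, 84 bases before the start: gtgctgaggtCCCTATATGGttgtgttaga
Acta2, chr19:34255388-34255417, minus strand, 34 bases before the start: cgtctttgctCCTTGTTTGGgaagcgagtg
Actc1, chr2:114053031-114053060, minus strand, 175 bases before the start: ctccctagctCCCTATATGGccattgctct
Actc1, chr2:114052903-114052932, minus strand, 47 bases before the start: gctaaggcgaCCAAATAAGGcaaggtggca
Lmod1, chr1:135324639-135324668, plus strand, 164 bases before the start: ctgctctgtaCTAAATTTGGtcacgcagcg
Casq2, chr3:102086363-102086392, plus strand, 42 bases before the start: caactgcatcCTAAAAATGGagttcttaat
The same 10 letters, CCCTATATGG, stood before Acta2, a smooth muscle actin, and Actc1, the cardiac actin. Actc1 was the only 1 of the 6 with an exact box, and it held 4 matches in all when 1 base off was allowed. Acta2, Lmod1 and Casq2 held 2 matches each, those of Casq2 overlapping, and Cnn1 and Des held none in this window. Of all 32851 promoters given, 1.47% held an exact box and 18.6% held a match with at most 1 base off. In a list of other smooth muscle contractile genes, 4 and 11 of 32 promoters did. Both Acta2 windows lie in the longer form of the first exon that the deposited annotation gives for this gene, and the other windows printed lie outside the exons of their genes. These are matches of letters, and binding was not measured.

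The libraries held between 25593453 and 31752562 counts. They differed in one large component: the 18S ribosomal RNA feature Rn18s-rs5 took 9.06%, 1.31%, 1.03% and 40.7% of the counts in order of age, so that the E14.5 library stood apart. Counts were therefore scaled by TMM, which sets the library sizes so that most genes do not differ, and levels across libraries are given as scaled CPM, the count per TMM-scaled library size. With plain library totals in place of TMM, the median of all genes at E14.5 moved by -1.08 on the log2 scale against E13.5 and by -1.05 against E12.5, and at E12.5 versus E11.5 it moved by 0.16. Changes below are relative to TMM. The direction of the last step depends on this choice: at E14.5 versus E13.5, 9 of the 10 genes were higher by TMM, and with library totals or the ratio of deposited TPM all 10 were lower. By TMM the 15 housekeeping genes of a fixed list stayed within 2-fold in all 4 comparisons. Their summed level by TPM went from 5478 at E13.5 to 1798 at E14.5. As the folds of this list are themselves scaled by TMM, they cannot decide between the scalings.

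Acta2, smooth muscle alpha actin, stood higher by TMM in each library than in the one before, with the last step turning to -0.66 with library totals and -1.21 by TPM. It had 875, 1400, 3312 and 2085 counts in the libraries in order of age, or 25.5, 44.6, 83.7 and 111 scaled CPM. The raw count was highest at E13.5, in a library with far less ribosomal RNA than that of E14.5. Per 1000 counts of the housekeeping list, another scaling, which takes that list as level, Acta2 gave 5.14, 9.24, 17.4 and 23.1 counts. The step from E11.5 to E12.5 was a log2 fold change of 0.81 (95% counting interval 0.68 to 0.93), the next was 0.90 (0.81 to 0.996) and the last was 0.42 (0.34 to 0.50). These intervals, exact Clopper-Pearson intervals from the counts of both libraries, cover counting error only, and the difference between 2 gonad pools of the same age is not in them.

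Myh11, the smooth muscle myosin heavy chain that pulls on this actin, also stood higher by TMM in each library than in the one before. Its last step likewise turned, to -0.50 with library totals and -1.06 by TPM. Myh11 had 181, 431, 910 and 638 counts from E11.5 to E14.5, or 5.28, 13.7, 23.0 and 33.9 scaled CPM. Its first step was the larger one, with a log2 fold change of 1.38 (1.13 to 1.64), against 0.74 (0.57 to 0.91) and 0.58 (0.43 to 0.73) for the later ones. Within each library the ratio of Myh11 to Acta2 counts does not depend on scaling. In order of age it was 0.207 (0.175 to 0.243), 0.308 (0.276 to 0.343), 0.275 (0.255 to 0.296) and 0.306 (0.280 to 0.335). After E11.5 the intervals of this ratio overlapped between libraries, whereas the E11.5 interval lay below all of them. Against Myh9, a nonmuscle myosin heavy chain, Myh11 moved from 0.0134 counts per count at E11.5 to 0.0861 at E14.5.

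Casq2 was nearly absent from the E11.5 library and present in every later one. It had 2, 193, 407 and 320 counts in order of age, or 0.0584, 6.15, 10.3 and 17.0 scaled CPM. The 2 counts at E11.5 are below the 3 counts that a count of 0 still allows, and the ratio of E12.5 to E11.5, 99.1-fold, had a counting interval from 28.8 to 877. The later steps were smaller, with log2 fold changes of 0.74 (0.49 to 0.99) at E13.5 versus E12.5 and 0.74 (0.53 to 0.96) at E14.5 versus E13.5, the last turning to -0.34 with library totals and -0.89 by TPM. Per count of Acta2, Casq2 gave 0.138 (0.118 to 0.160), 0.123 (0.111 to 0.136) and 0.153 (0.136 to 0.173) in the 3 libraries without mesonephros. The skeletal muscle paralogue Casq1 had 13, 13, 14 and 6 counts and showed no such appearance.

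Des, Actc1, Actg2 and Cnn1 were highest at E11.5, the library that contained mesonephros. Des encodes desmin, the intermediate filament protein of muscle cells, and had 1050, 311, 401 and 207 counts, or 30.6, 9.91, 10.1 and 10.995 scaled CPM. It was 3.09-fold lower at E12.5 than at E11.5 and then level by TMM, with later log2 fold changes of 0.03 (-0.19 to 0.25) and 0.14 (-0.11 to 0.38). The ratio of Acta2 to Des counts accordingly went from 0.833 (0.761 to 0.912) at E11.5 to 4.50 (3.98 to 5.11), 8.26 (7.44 to 9.18) and 10.1 (8.73 to 11.7), with no overlap between the E11.5 interval and the others. Per length, in TPM, Acta2 was at 0.636 of the Des level at E11.5 and at 7.68 times it at E14.5.

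Actg2, the smooth muscle gamma actin of gut and other hollow organs, had 92, 29, 46 and 42 counts, or 2.68, 0.924, 1.16 and 2.23 scaled CPM. By TMM it was low at E12.5 and E13.5 and higher at both ends of the series. By TPM it had 3.15, 1.32, 1.82 and 1.14 TPM, lowest at E14.5. The fall into E12.5 was -1.53 (-2.19 to -0.92) on the log2 scale. E14.5 stood 1.28 (0.57 to 2.02) above E12.5 by TMM, which turned to -0.22 by TPM. Cnn1, calponin, an actin-binding protein of differentiated smooth muscle, had 51, 24, 33 and 20 counts, or 1.49, 0.765, 0.834 and 1.06 scaled CPM. Its log2 fold change of -0.96 (-1.72 to -0.23) at E12.5 was just inside 2-fold, and its later changes by TMM could not be told from no change at this depth.

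Actc1, the cardiac actin, was highest at E11.5 and lowest at E14.5. It had 131, 45, 57 and 4 counts in order of age, or 3.82, 1.43, 1.44 and 0.212 scaled CPM. It was 2.66-fold lower at E12.5 than at E11.5, level at E13.5, and lower again at E14.5 by a log2 fold change of -2.72 (-4.67 to -1.31) against E13.5. The last of these values rests on 4 counts.

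Tagln, Myocd and Lmod1 changed little between E11.5 and E12.5. Tagln, or SM22, an actin-associated protein expressed early in smooth muscle, had 721, 539, 732 and 431 counts, or 21.0, 17.2, 18.5 and 22.9 scaled CPM. All 4 values lay close together by TMM, with a dip at E12.5 of -0.29 (-0.46 to -0.13) on the log2 scale. An exon of Tagln overlaps Pcsk7 on the opposite strand, which had 599, 553, 708 and 300 counts. The library kit keeps strand, but whether the counting used it is not given in the sources used here, so reads in the overlap cannot be assigned with certainty.

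Myocd encodes myocardin, the coactivator of serum response factor. It had 715, 482, 730 and 500 counts, or 20.9, 15.4, 18.4 and 26.6 scaled CPM, by TMM lowest at E12.5 and highest at E14.5. By TPM it was lowest at E14.5 (2.15 TPM). Its log2 fold changes from each library to the next were -0.44 (-0.61 to -0.27), 0.26 (0.09 to 0.43) and 0.54 (0.38 to 0.71). Myh11, a gene that myocardin is known to activate, gave 0.253 (0.214 to 0.298), 0.894 (0.783 to 1.02), 1.25 (1.13 to 1.38) and 1.28 (1.13 to 1.44) counts per count of Myocd. Per length, in TPM, Myh11 was at 0.312 of the Myocd level at E11.5 and at 1.57 times it at E14.5. Lmod1, leiomodin, which starts new actin filaments in smooth muscle, had 24, 22, 34 and 28 counts, or 0.700, 0.701, 0.859 and 1.49 scaled CPM. It was a low gene throughout. E14.5 was its highest library by TMM and its lowest by TPM (0.274, 0.335, 0.449 and 0.253 TPM in order of age).

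**Figure D1:**
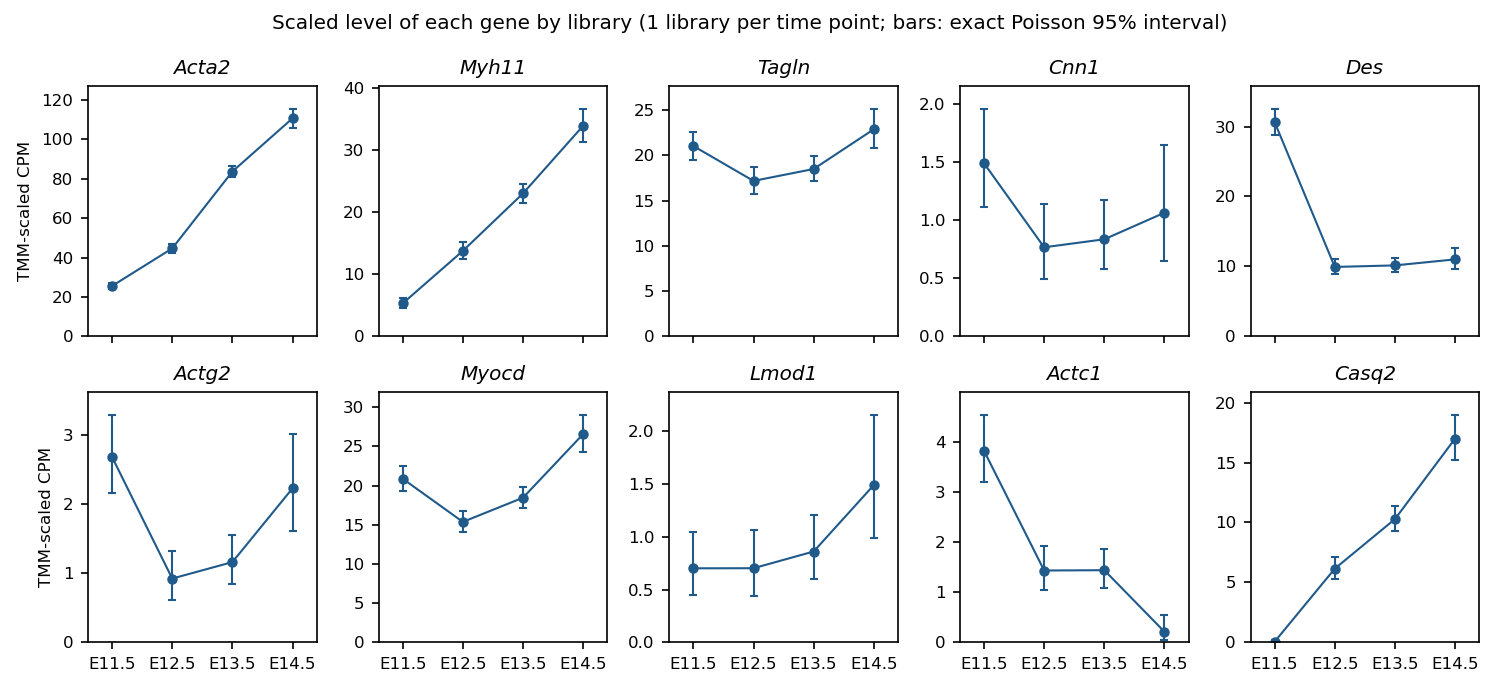
TMM-scaled CPM of the 10 genes (vertical axes from 0, a scale for each gene) in the 4 libraries, 1 per time point; bars are exact Poisson 95% intervals of the count. By TMM, Acta2, Myh11 and Casq2 climb from library to library to 111, 33.9 and 17.0 scaled CPM at E14.5 (the step from E13.5 turns downward with library totals or TPM), Des drops from 30.6 to 9.91 after E11.5, and Actc1 ends at 0.212.

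Taking the comparisons in turn, 5 of the 10 genes were past 2-fold at E12.5 versus E11.5, against a background of 17.8% of the 19215 genes tested. Myh11 and Casq2 were higher at E12.5, where 8.64% of all genes were past 2-fold upward, and Des, Actg2 and Actc1 were lower, where 9.11% were. The median log2 fold change of the 10 genes was -0.37, beside -0.00 over all genes. All 10 genes passed the filter on low counts in every comparison. The genes were chosen with these values in view, and nothing is read from the difference from the background.

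At E13.5 versus E12.5 none of the 10 genes was past 2-fold, where 5.27% of 19152 genes were. Acta2 came nearest, at 0.90, just inside. Acta2, Myh11, Myocd and Casq2 had counting intervals above 0, as did 18.3% of all genes tested, and the intervals of the other 6 held 0. The median of the 10 genes was 0.28, beside 0.00 over all genes. At E14.5 versus E13.5, Actc1 alone was past 2-fold, and it was lower, with 8.95% of 18992 genes past 2-fold in either direction. Actg2, at 0.96 (0.32 to 1.59), was just inside 2-fold. A total of 7 genes had intervals above 0 (19.3% of all genes), and those of Cnn1 and Des held 0. None of these 7 upward changes kept its direction with library totals or by TPM, which both keep the ribosomal RNA in the total. The log2 fold changes of the 10 genes then lay between -3.78 and -0.12 with library totals and between -4.38 and -0.68 by TPM. By TPM 7 genes (Acta2, Myh11, Tagln, Cnn1, Des, Myocd and Actc1) were past 2-fold downward. With DESeq2 size factors, TMM without small RNA features or counts per count of the housekeeping list, the 7 upward changes kept their direction.

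The comparison of E14.5 with E12.5 spans the days after the mesonephros was removed. Here 5 genes were past 2-fold upward, against 8.44% of 18704 genes, and Actc1 was past it downward, against 3.33%. In both directions together that is 6 of the 10 genes beside 11.8% of all genes. Casq2 stood 1.48 higher (1.22 to 1.74) on the log2 scale, Acta2 1.32 (1.22 to 1.42), Myh11 1.31 (1.14 to 1.49), Actg2 1.28 (0.57 to 2.02) and Lmod1 1.09 (0.24 to 1.97). Lmod1 was just past 2-fold, and Myocd, at 0.80 (0.62 to 0.98), was inside it. All 5 upward calls depend on the scaling: as a ratio of the deposited TPM values, with the ribosomal RNA in the total, Acta2, Myh11, Actg2, Lmod1 and Casq2 came to between -0.40 and -0.02. With library totals these 5 stayed above 0 but inside 2-fold, and Tagln, Cnn1, Des and Myocd turned below 0. This comparison uses libraries of the 2 comparisons before it, so the comparisons are not independent of each other. In pooled tissue, fewer cells of a type and less RNA per cell cannot be told apart.

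**Figure D2:**
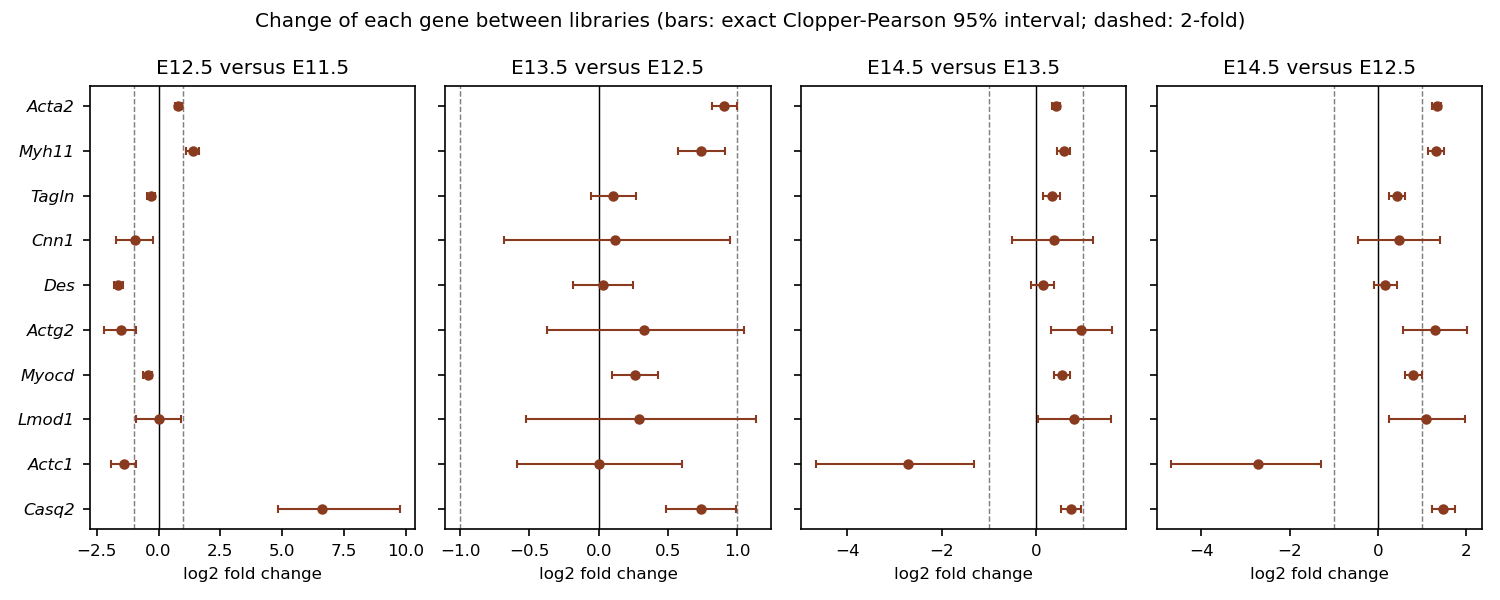
log2 fold change (horizontal axes, each with its own scale) of the 10 genes in the 4 comparisons, with exact Clopper-Pearson 95% counting intervals and dashed lines at 2-fold. Casq2 stands far to the right at E12.5 versus E11.5 (6.63), all 10 genes lie inside 2-fold at E13.5 versus E12.5, and by TMM Actc1 stands alone on the left in both comparisons with E14.5, whereas with TPM all 10 genes lie on the left there.

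Levels of different genes were compared within a library by TPM, which corrects for gene length. At E11.5 Des (22.0 TPM) and Tagln (20.5 TPM) led with overlapping counting intervals, followed by Acta2 (13.98 TPM), and then by Actc1 (4.25 TPM), Myocd (3.88 TPM) and Actg2 (3.15 TPM), each overlapping its neighbour. From E12.5 on Acta2 was first, at 29.8, 61.1 and 26.3 TPM, and Tagln second, at 20.4, 24.0 and 9.67 TPM, with intervals that did not overlap. Acta2 made up 19.9% of the summed TPM of the 10 genes at E11.5 and 51.4% at E14.5. Casq2 was last at E11.5 (0.0352 TPM), overlapped Myh11 at E12.5 (4.52 and 3.84 TPM), and was next after Tagln at E14.5 (4.45 TPM), above Des (3.43 TPM) and Myh11 (3.38 TPM), which overlapped. Cnn1 and Lmod1 overlapped at E12.5, E13.5 and E14.5 and stayed below 1 TPM in those libraries.

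The 4 muscle actins showed the change in composition most directly, since a share within 1 library does not depend on scaling. Besides the members Acta2, Actg2 and Actc1 these include Acta1, the skeletal muscle actin, with 153, 115, 137 and 55 counts. Acta2 made up 54.3%, 79.6%, 87.8% and 91.4% of their summed TPM in order of age. Actc1 went the other way, from 16.5% to 5.19%, 3.06% and 0.356%. Actg2 took 12.2%, 3.53%, 2.61% and 3.95%, and Acta1 took 17.0%, 11.7%, 6.52% and 4.33%. When the abundant nonmuscle actins Actb and Actg1 were added, Acta2 was 0.557%, 1.102%, 2.28% and 3.14% of the summed TPM of all 6 actins. Actins are alike in sequence, yet of the 2146 distinct 50-base windows of Acta2 transcripts 0.326% occurred in another gene, and no window of Actg2 or Actc1 did.

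**Figure D3:**
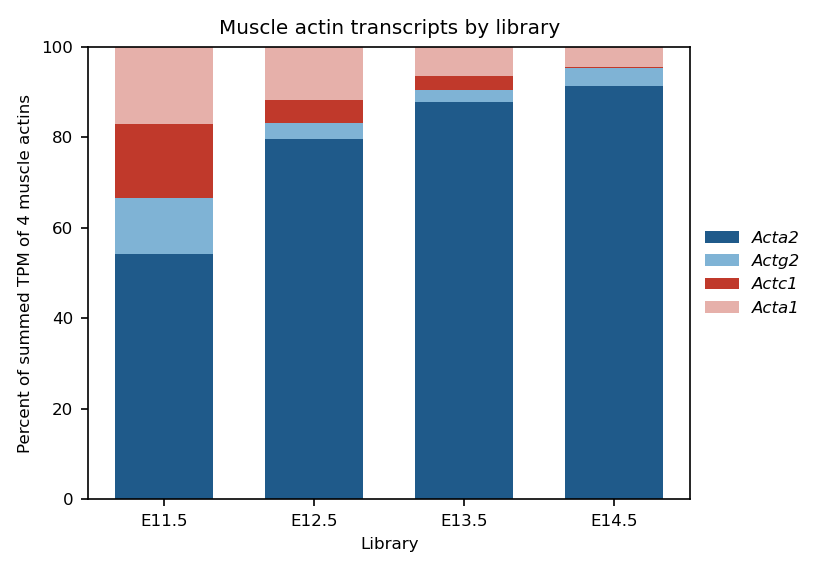
Share of the summed TPM (percent, bars from 0 to 100) taken by each of the 4 muscle actins in each library. The Acta2 share grows from 54.3% at E11.5 to 91.4% at E14.5, while that of Actc1 shrinks from 16.5% to 0.356%.

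Other genes of the smooth muscle apparatus were past 2-fold in a share near that of all genes. Of 30 listed genes 28 passed the filter, and at E12.5 versus E11.5 3 of them were past 2-fold upward and 3 downward, or 21.4% beside 17.8% of all genes, with a median of 0.22. Mylk, the kinase that phosphorylates the myosin light chain, was higher by 1.19, Synm, an intermediate filament protein that pairs with desmin, by 2.70, and Aoc3, an amine oxidase abundant in smooth muscle, by 3.01. Tpm2, a tropomyosin, stood at -1.10, Synpo2, an actin-bundling protein, at -1.25 and Pgm5, a protein of adhesion sites in muscle, at -1.71. Synm thus went the opposite way from Des, its filament partner: Synm had 72, 430, 990 and 605 counts, or 2.10, 13.7, 25.02 and 32.1 scaled CPM. Aoc3 had 16, 119, 342 and 297 counts, or 0.467, 3.79, 8.64 and 15.8 scaled CPM. It was the 1 gene of the list past 2-fold at E13.5 versus E12.5 (1.18), or 3.57% beside 5.27% of all genes. At E14.5 versus E13.5 only Pgm5 was past 2-fold by TMM (1.0002), or 3.57% beside 8.95%. At E14.5 versus E12.5 Mylk (1.04), Pgm5 (1.06), Synm (1.24) and Aoc3 (2.07) were, or 14.3% beside 11.8%. By TPM Pgm5 instead fell from 3.58 at E13.5 to 2.30 at E14.5. Against E12.5, Mylk (19.1 to 13.9 TPM), Pgm5 (3.12 to 2.30 TPM) and Synm (3.28 to 2.74 TPM) were lower at E14.5. Aoc3 was higher (1.57 to 2.32 TPM).

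The genes that carry the signal to the CArG box were listed as well. All 16 listed genes of the serum response factor pathway passed the filter, with a median of 0.15 at E12.5 versus E11.5. There 1 gene was past 2-fold, or 6.25% beside 17.8% of all genes. It was Klf4, a transcription factor that opposes smooth muscle differentiation (1.83, from 514 to 1676 counts). No gene of the list was past 2-fold in the other 3 comparisons, beside 5.27%, 8.95% and 11.8% of all genes. Srf itself had 86.0, 108, 117 and 81.9 scaled CPM, and its coactivators Mkl1 and Mkl2 ranged from 40.7 to 44.4 and from 86.8 to 90.9. These are RNA levels, and the activity of the pathway and its part in the contractile gene levels were not tested.

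Casq2 works in the sarcoplasmic reticulum, so the genes of that calcium store were listed too. Of 22 genes 19 passed the filter, with a median of 0.13 at E12.5 versus E11.5. There 2 genes were past 2-fold upward and 3 downward, or 26.3% beside 17.8% of all genes. Upward were Stim1, the sensor of store calcium (1.23), and Ryr2, the cardiac calcium release channel (1.11, from 521 to 1030 counts). Downward were Ryr3 (-1.61), another release channel, Jph2 (-1.14), a protein that ties the store to the cell membrane, and Jph3. Ryr2 had 15.2, 32.8, 57.2 and 36.8 scaled CPM, so by TMM it was highest at E13.5, where Casq2 was still below its E14.5 level. By TPM both were highest at E13.5, Ryr2 at 6.93 and Casq2 at 8.27 TPM, against 1.45 and 4.45 TPM at E14.5. Trdn, the partner that anchors calsequestrin to the release channel, did not pass the filter on low counts, nor did Pln and Sln, inhibitors of the calcium pump.

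Genes of the striated sarcomere moved in both directions at E12.5 versus E11.5. Of 37 genes 25 passed the filter, with 10 past 2-fold upward, 3 downward and a median of 0.88. In both directions together that is 52% of the genes that passed, beside 17.8% of all genes. The widest change upward was in Mybpc3, cardiac myosin-binding protein C, at 5.56 (7, 308, 845 and 504 counts). Myh8, a perinatal myosin, stood at 4.20 and Myh6, an atrial myosin, at 2.57. Mybpc1 (-4.04, from 1372 to 76 counts) and Actn3 (-3.38) were lower. Casq2 and Mybpc3 appeared in the same library, and the ratio of their counts was 0.627 (0.521 to 0.753), 0.482 (0.427 to 0.543) and 0.635 (0.550 to 0.732) from E12.5 on. Of 9 transcription factors of skeletal and cardiac muscle, 3 passed the filter at E12.5 versus E11.5: Mef2c (0.50), with 1128 to 2267 counts across the libraries, Myod1 (-0.74), with 11, 6, 2 and 4 counts, and Tbx20, which was past 2-fold downward (-4.72) with 436, 15, 21 and 1 counts. The other 6 (Myog, Myf5, Myf6, Pax7, Nkx2-5 and Tbx5) had at most 8 counts in any library. Of 7 nonmuscle actin and myosin genes all passed the filter, with a median of -0.18. Myh14, a nonmuscle myosin, was the 1 gene past 2-fold (1.41, upward), or 14.3% beside 17.8% of all genes.

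Most listed genes of mesonephros and of gut and splanchnic mesoderm were lower at E12.5 than at E11.5, while mural cell genes moved both ways. Among the contractile genes Des, Actg2 and Actc1 were lower, and Myh11 and Casq2 were higher. Of the 12 genes listed for mesonephros and nephric duct 9 were past 2-fold downward (median -2.67), or 75% beside 9.11% of all genes. They were led by Six2 (-6.50), Wnt9b (-5.70), Pax2 (-4.54) and Gata3 (-3.55), and the 1 gene of the list above 0 stood at 0.64. The summed level of the list went from 257 TPM at E11.5 to 193, 182 and 48.5 TPM. TPM sums at E14.5 are lowered for all lists by the ribosomal RNA in the total, and the list holds Wt1, which gonadal cells express too. Of 7 genes of gut and splanchnic mesoderm 6 were past 2-fold downward (median -4.11), or 85.7% beside 9.11% of all genes, and the 1 gene above 0 stood at 0.72. The sum of this list went from 41.2 TPM at E11.5 to between 6.40 and 15.7 TPM later. Of the 10 mural cell genes Higd1b did not pass the filter, Tbx18 (-5.14) and Rgs5 (-3.15) were past 2-fold downward, and Cspg4 (1.24) was past it upward, with a median of -0.05. In both directions together that is 33.3% of the genes that passed, beside 17.8% of all genes. The sum of the mural genes was 129, 110, 141 and 53.9 TPM, and Pdgfrb, the receptor of pericytes and other stromal cells, stayed within 2-fold (-0.42). The part of these tissues in the lower Des, Actg2 and Actc1 at E12.5 was not tested.

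Several Sertoli cell and signalling genes were higher in the same step. Of 7 Sertoli cell genes 5 were past 2-fold upward (median 4.39), or 71.4% beside 8.64% of all genes. They were led by Amh (7.75), Ptgds (6.72) and Defb19 (6.62), while Sox9 (0.76, with 2763 counts already at E11.5) and Fgf9 (0.74) were within 2-fold. The sum of the list went from 46.7 TPM at E11.5 to 838, 918 and 332 TPM. All 7 genes were above 3 counts in every library, so markers of the labelled tissue were present throughout. Of 10 genes of peritubular and interstitial signalling 6 were past 2-fold upward (median 1.23), or 60% beside 8.64% of all genes. Among them were Dhh, the Sertoli cell ligand for peritubular and Leydig cells (4.89), and its target Hhip (2.56). In the other 3 comparisons the signalling list had no gene past 2-fold, beside 5.27%, 8.95% and 11.8% of all genes. The part of these cell types in the contractile gene levels was not tested.

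**Figure D4:**
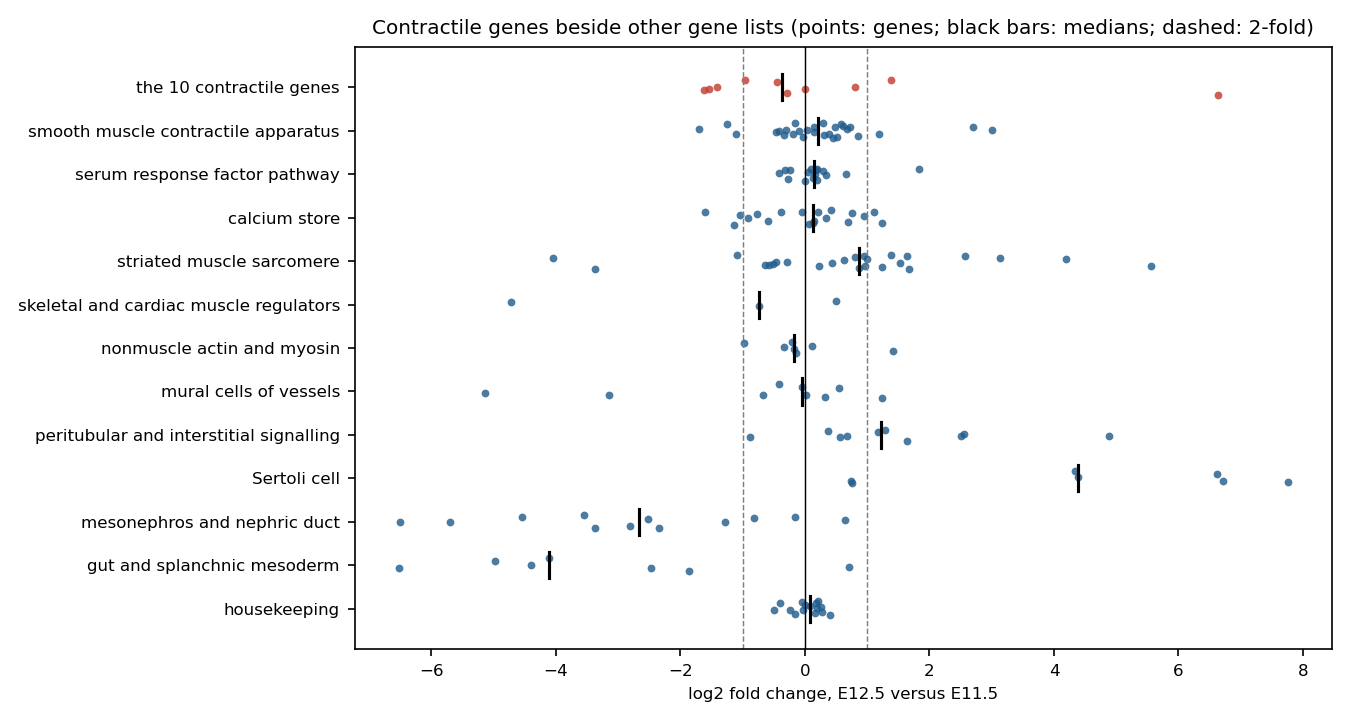
log2 fold change at E12.5 versus E11.5 (horizontal axis) of every gene that passed the filter, by list (rows; points are genes, black bars are medians, dashed lines are 2-fold). The 10 contractile genes spread from -1.63 (Des) to 6.63 (Casq2), the serum response factor and housekeeping lists have medians of 0.15 and 0.08, and the mesonephros list has its median at -2.67.

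The genes whose profile was most like that of a member were ranked among 14063 genes by the largest log2 difference over the 4 libraries, after each profile was centred on its own mean. For Acta2 these were Osmr (0.05), Plscr4 (0.10) and Adh1 (0.10), and for Myh11 they were Scarb1 (0.09), Spats2l (0.12) and Fam110c (0.12). For Des they were Rdh10 (0.03), Arnt2 (0.05) and Dpysl4 (0.05). For Casq2 the closest genes were Defb19 (0.25), Hsd3b1 (0.40) and Mael (0.42). The E11.5 value of Casq2 rests on 2 counts, so the lack of a nearer gene cannot be told from counting error. Among the members themselves the closest pairs were Tagln with Myocd (0.20), Acta2 with Myh11 (0.39) and Cnn1 with Actg2 (0.39). With 4 libraries such likeness is a description of these profiles.

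The members lie on separate stretches of the genome. In the mm10 annotation of the files, Acta2 is at chr19:34240336-34255585 and Myh11 at chr16:14194527-14291408, both on the minus strand. Tagln (chr9:45929628-45936058, minus) and Cnn1 (chr9:22099253-22109221, plus) share chromosome 9, and Des (chr1:75360344-75367716, plus) and Lmod1 (chr1:135324813-135368065, plus) share chromosome 1. Actg2 is at chr6:83512909-83536251 and Myocd at chr11:65173608-65269989, both minus, Actc1 at chr2:114047289-114052811, minus, and Casq2 at chr3:102086420-102146514, plus. The counts of each gene are over its exons, and the Tagln overlap with Pcsk7 was the 1 exonic overlap with another gene.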

How the data were processed

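Libraries were made from ribosome-depleted total RNA with a stranded kit that tags molecules with unique identifiers. The authors aligned the reads with STAR to mm10, removed duplicates by these identifiers with UMI-tools and counted features with featureCounts. The deposited count per feature was used for all fold changes. The deposited TPM, computed by the authors from the counts and the exon lengths, was used for levels between genes within a library, and the deposited RPKM was not used. Totals ranged from 25593453 to 31752562 counts per library.

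Samples were grouped by time point from the labels. The 10 genes and the 12 other lists were chosen with earlier results of these data known. Each of 4 pairs of libraries was filtered with filterByExpr and scaled by TMM in edgeR 4.0.16 (R 4.3.3), with a prior count of 0.125. A log2 fold change of at least 1 was called past 2-fold. As there is 1 library per time point, no test across samples was possible and no p-value is given. Intervals are exact Clopper-Pearson intervals at 95%, for fold changes and ratios, and exact Poisson intervals for levels, and cover counting error only. Fold changes were tested on simulated data with 200 changed genes. The simulated libraries of a pair shared their composition apart from these genes, so the ribosomal RNA difference of the E14.5 library was not covered. Of each list the text gives counts and the median, mainly at E12.5 versus E11.5. The rule for names was genes past 2-fold with 100 or more counts, at most 5 per list and comparison, with others of the smooth muscle, serum response factor, mural and Sertoli lists by level. Not all genes that met it are reported here. Jph3, Myod1, Mef2c, the muscle factors with few counts, Acta1, Casq1, Myh9, Actb, Actg1, Pcsk7, Trdn, Pln, Sln and Wt1 were named after their values were seen. Alternatives were DESeq2 1.42.0 size factors, library totals, other filters and prior counts, the ratio of TPM, a stricter threshold and edgeR's exact test at dispersions preset without replicates, which compares libraries and is given only as counts of calls at an FDR of 0.05. Counts per count of the housekeeping list were added after the data were seen.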

Additional observations from a re-analysis of the deposited data

How the results depend on the processing

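The member fold changes stayed inside their counting intervals with DESeq2 size factors, with TMM without small RNA features, with a prior count of 2 and with counts per count of the housekeeping list, in all 40 values each. With library totals 19 of 40 moved further and 13 changed sign, and with the ratio of deposited TPM 24 moved further and 18 changed sign. All these changes of sign were in the 2 comparisons with E14.5. Of the 18 with TPM, 5 were changes past 2-fold: at E14.5 versus E12.5 Acta2 came to -0.18, Myh11 to -0.19, Actg2 to -0.22, Lmod1 to -0.40 and Casq2 to -0.023. Both alternatives keep the ribosomal RNA of the E14.5 library in the total. Members past 2-fold at E12.5 versus E11.5 numbered 5, and 1 at a log2 fold change of at least 2, 1 by the exact test of edgeR with the biological coefficient of variation (BCV) preset to 0.4, and 3 with the whole interval past 2-fold. At E13.5 versus E12.5 the number went from 0 to 1 with TPM. At E14.5 versus E13.5 it went from 1 to 7 with TPM, all downward, to 0 with at least 10 counts in both libraries, which removes Actc1, and to 0 at a BCV of 0.4. At E14.5 versus E12.5 it went from 6 to 1 with library totals, 1 at a log2 fold change of at least 2, and 0 at a BCV of 0.4.

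Over all genes at E12.5 versus E11.5, 3412 were past 2-fold, and 10252 with no filter, 2255 with at least 10 counts in both, 1247 at a log2 fold change of at least 2, 1822 at a BCV of 0.2, 286 at 0.4 and 1727 with the whole interval past 2-fold. At E13.5 versus E12.5 the number was 1009, and in the same order 7493, 516, 151, then 360 at a BCV of 0.1, 54 at 0.2, 1 at 0.4, and 166. At E14.5 versus E13.5 it was 1700, with 11921 by library totals (323 up, 11598 down), 17133 by TPM (161 up, 16972 down), 8717 with no filter, 438 at a log2 fold change of at least 2, 925, 479 and 31 at BCVs of 0.1, 0.2 and 0.4, and 588 by interval. At E14.5 versus E12.5 it was 2202, with 10744 by library totals (467 up, 10277 down), 15741 by TPM (288 up, 15453 down), 9153 with no filter, 627 at a log2 fold change of at least 2, 817 and 72 at BCVs of 0.2 and 0.4, and 897 by interval.

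No paired analysis was possible because each time point has 1 library and the labels give no replicate numbers. For the same reason leaving out a library was not run. Depth limits Cnn1, Actg2, Lmod1 and Actc1, each with under 100 counts after E11.5. Casq2 at E11.5 rests on 2 counts and Actc1 at E14.5 on 4.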
